A study of Rattus norvegicus with 9 samples.

Results

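The neutrophil granule genes are 10 genes whose products mark steps in the making of a neutrophil: Mpo, Elane, Prtn3 and Ctsg of the azurophil granule, Ltf, Camp, Lcn2 and Mmp8 of the specific granule, and the cytosolic pair S100a8 and S100a9. They were followed in whole bone from the skull and the limb, on probe sets that the platform annotation assigns to one of these genes alone. Such a probe set was found for 5 of the 10 genes, of 14217 genes measured in all, and each of the 5 had 1 probe set. Specific granule genes were represented by Camp, Lcn2 and Mmp8 and the cytosol by S100a8 and S100a9. Mpo, Elane, Prtn3, Ctsg and Ltf had none and were not analysed here, so the azurophil class has no value of its own. Azurophil content is described below only through lists of other genes, not all of which encode content of that granule.

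Expression was measured on 4 arrays of skull bone (calvaria) and 5 of limb bone (ulna), both from untreated male CD rats of about 110 g. The study's methods describe RNA taken from bones of rats combined in groups, which makes each replicate a pool, and which skull and limb samples share a group of rats is not given in the labels. The bones had been freed of soft tissue, sutures and epiphyses. Removal of marrow from the bones used for RNA is not given in the sources used here. On ulna 1, 2, 3 and 4 one label field names the calvaria against the title, whereas Hoxa9, a gene of limb and trunk position, gave signals of 1.82 to 4.80 on the 4 skull arrays and 60.4 to 79.0 on the 5 limb arrays. The median signal ranged over the 9 arrays between 33.0 and 36.6 units, and the maximum between 5503 and 8616.

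Neutrophils are made in the bone marrow, and their granules fill in sequence as the cell matures. Promyelocytes make the proteases and myeloperoxidase of the azurophil granule, myelocytes and metamyelocytes the antimicrobial proteins of the specific granule, and later stages the gelatinase granule and the receptors of the circulating cell. A protein is packed into the granule that is forming while its gene is transcribed, so that the transcripts mark the stage of the cell that holds them. S100A8 and S100A9 are calcium-binding proteins that pair as calprotectin, which fills much of the neutrophil cytosol.

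The specific granule genes were lower in the skull, and the cytosolic pair differed less. Camp encodes the precursor of the cathelicidin peptide that kills bacteria. Its signal was 1280, 1210, 967 and 967 on calvaria 1 to 4, against 2656, 2767, 2930, 2523 and 2321 on ulna 1 to 5. The highest skull array therefore lay well below the lowest limb array. The mean was 1106 ± 163 (SD, n = 4) in the skull and 2639 ± 232 (SD, n = 5) in the limb, a log2 difference of -1.26 ± 0.11 (SE; limma, adjusted p = 9.2e-05), or 2.40-fold less in the skull (95% confidence interval 2.02 to 2.85).

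Lcn2 encodes lipocalin 2, which withholds iron from bacteria by binding their siderophores. Its signal was 1004, 953, 750.2 and 717 on calvaria 1 to 4, against 2214, 1863, 1847, 1806 and 1853 on ulna 1 to 5. The sites did not overlap, and ulna 1 stood above the other limb arrays. The log2 difference was -1.17 ± 0.12 (SE; limma, adjusted p = 0.00016), which is 2.26-fold less in the skull (1.88 to 2.71).

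Mmp8 encodes neutrophil collagenase, which cleaves fibrillar collagen. The study lists it among genes that differed on these samples, so its call is not independent of that choice. Its signal was 275, 185, 135 and 140.4 on calvaria 1 to 4, against 757, 528, 592, 626 and 607 on ulna 1 to 5. The sites did not overlap here either, and calvaria 1 was highest among the skull arrays. The log2 difference of -1.81 ± 0.20 (SE; limma, adjusted p = 0.00032) corresponds to 3.51-fold less in the skull (2.54 to 4.84). The intervals of Camp and Mmp8 overlap between 2.54 and 2.85.

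The cytosolic pair was bright at both sites. S100a8 gave 3442, 3241, 2873 and 2603 on calvaria 1 to 4, against 4503, 4488, 5698, 4019 and 4548 on ulna 1 to 5. S100a9 gave 4968, 5041, 4850.3 and 4417 on calvaria 1 to 4, against 7563, 6720.0, 7760.4, 5301 and 7435 on ulna 1 to 5. For both genes every skull array was below every limb array, and ulna 4, the lowest limb array for both, came closest to the skull arrays. The log2 differences were -0.61 ± 0.13 for S100a8 (SE; limma, adjusted p = 0.0078), 1.53-fold less in the skull (1.25 to 1.86), and -0.52 ± 0.13 for S100a9 (adjusted p = 0.023), 1.43-fold less (1.16 to 1.77). Neither reached the 2-fold difference that a call required. The adjusted p of S100a9 was above 0.05 without calvaria 2, 3 or 4 or without ulna 1, 3 or 5 (0.0502 to 0.0568).

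**Figure D1:**
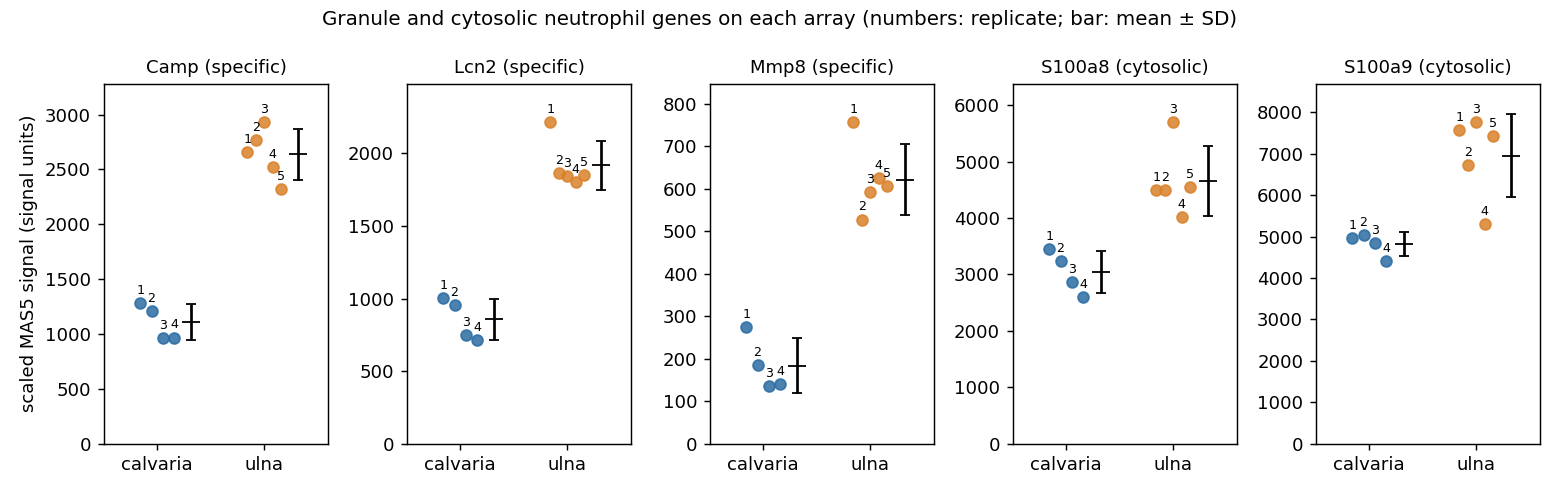
Scaled MAS5 signal (signal units, linear axis from 0) of the 5 measured genes on each skull (calvaria, blue) and limb (ulna, orange) array, with replicate numbers and, beside each group, the mean ± SD. Every skull array lies below every limb array in all 5 panels, with the widest gap relative to signal for Mmp8 (135 to 275 in the skull, 528 to 757 in the limb) and the narrowest for S100a9 (4417 to 5041 in the skull, 5301 to 7760.4 in the limb).

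A probe set was called when its adjusted p was below 0.05 and its difference at least 2-fold. By this rule 3 of the 5 members were lower in the skull and none was higher, the 3 being all specific granule genes measured. Over all 31042 probe sets 3.36% were called lower in the skull, and 6.24% in either direction. At the adjusted p alone all 5 members were lower, against 11.9% of all probe sets. All skull arrays lay below all limb arrays for the 5 members, against 11.8% of all probe sets. The median log2 difference was -1.26 for the 3 specific granule genes, -0.57 for the cytosolic pair and -0.01 for all probe sets. In a bulk sample, fewer cells that carry these transcripts, of whatever type, and less of the transcripts per cell cannot be told apart.

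The distance between the classes within an array did not overlap between the sites. The mean log2 signal of the specific granule genes minus that of the cytosolic pair was -2.55, -2.76, -3.02 and -2.88 on calvaria 1 to 4, against -1.83, -1.98, -2.17, -1.70 and -2.08 on ulna 1 to 5. The size of this quantity depends on the probes, and its difference between the sites was -0.85. Each of the 6 ratios of a specific granule gene over a cytosolic gene was lower in the skull with no overlap, by -0.56 on the log2 scale for Lcn2 over S100a8 up to -1.29 for Mmp8 over S100a9. In contrast, S100a8 over S100a9 (-0.09) and Camp over Lcn2 (-0.09) overlapped between the sites. Within the specific granule class Lcn2 over Mmp8 was higher in the skull by 0.64 without overlap, and Camp over Mmp8 by 0.55 with overlap. These ratios are descriptions and were given no test.

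The cytosolic pair lay near the top of the array range. S100a9 was the brightest probe set of all on ulna 2 and ranked 2 to 5 on the other limb arrays. On the skull arrays S100a9 ranked 27 to 65. S100a8 ranked 35 to 67 on the limb arrays and 101 to 162 on the skull arrays. Among the 86 probe sets at least as bright as S100a8, limma called 0, and the methods' t-test with the same thresholds also called 0. In limma 11 of the 86 had an unadjusted p below 0.05. At an adjusted p below 0.05 there were 5, of which 3 were lower in the skull and 2 higher. The 3 lowest log2 differences in that bright set belonged to S100a8, S100a9 and the defensin Defa5 (-0.45), and the median of the set was 0.07. Of the 409 probe sets at least as bright as Lcn2, 4.89% were called lower in the skull. Whether brightness has any part in the size of these differences was not tested.

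Upstream sequence was compared because the members were lower together and granule genes are known targets of C/EBP factors, PU.1 and Myb. RefSeq start sites on the GRCr8 assembly were given for 8 of the 10 genes. S100a8 and Elane had no entry. Some of these start sites lie inside the bounds given for the gene, so the windows of Lcn2 and Mmp8 lie partly within the gene. The 250 bases before the start are shown for the 4 of these 8 that were measured, with matches to any of the 3 motifs in capitals.
Camp, chr8:118721999-118722248, minus strand: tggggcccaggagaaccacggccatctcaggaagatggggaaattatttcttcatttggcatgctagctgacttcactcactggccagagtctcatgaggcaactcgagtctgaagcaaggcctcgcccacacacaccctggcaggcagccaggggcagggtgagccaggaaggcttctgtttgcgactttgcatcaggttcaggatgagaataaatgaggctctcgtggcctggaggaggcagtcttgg
Lcn2, chr3:36081781-36082030, minus strand: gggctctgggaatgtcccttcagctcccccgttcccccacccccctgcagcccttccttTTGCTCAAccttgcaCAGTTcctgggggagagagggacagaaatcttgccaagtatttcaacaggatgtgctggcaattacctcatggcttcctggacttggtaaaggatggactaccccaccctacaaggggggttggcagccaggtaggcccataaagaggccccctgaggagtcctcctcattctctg
Mmp8, chr8:13008640-13008889, plus strand: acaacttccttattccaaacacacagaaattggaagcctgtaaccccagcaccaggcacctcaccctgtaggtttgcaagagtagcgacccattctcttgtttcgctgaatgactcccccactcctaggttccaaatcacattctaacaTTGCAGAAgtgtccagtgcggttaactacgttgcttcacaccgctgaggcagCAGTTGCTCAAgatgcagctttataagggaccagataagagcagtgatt
S100a9, chr2:178490623-178490872, minus strand: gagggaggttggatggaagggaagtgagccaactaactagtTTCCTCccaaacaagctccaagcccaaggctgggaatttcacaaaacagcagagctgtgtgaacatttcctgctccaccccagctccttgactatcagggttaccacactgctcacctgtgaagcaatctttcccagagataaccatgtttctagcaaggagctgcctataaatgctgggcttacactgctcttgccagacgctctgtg

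The motifs were searched on both strands as TTNNGCAA (C/EBP), GAGGAA (PU.1) and AACTG (Myb). Lcn2 held 1 C/EBP match and Mmp8 held 2, of which the one nearer the start overlaps a Myb match in the letters shown. Lcn2 also held 1 Myb match. Camp held a match to none of the 3, and S100a9 held 1 PU.1 match. Over the 8 genes 2 had a C/EBP match, 4 a PU.1 match and 3 a Myb match. Mpo, Prtn3 and Ctsg, which have no expression value here, are among those with a PU.1 match. Ctsg is also among those with a Myb match. The windows of Mpo and Prtn3 lie wholly within the gene bounds, and each held 1 PU.1 match. The corresponding shares of all 33469 promoters were 9.22%, 23.3% and 40.2%. A match is only a run of letters, and these counts are a description.

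Other genes of the same lineage were taken from 7 lists that hold none of the 10 members. Of the 61 genes measured, with Fcnb counted once although it stands in 2 lists, 19 were lower in the skull, 2 were higher and 40 were not called, with a median log2 difference of -0.67. By gene, with 1 probe set each, 4.31% of 14217 were called lower in the skull and 3.47% higher. Every named value below is from the same fit, and log2 differences are skull minus limb.

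Of 10 other genes listed under specific granules and measured, 5 were lower in the skull, none was higher, and all 10 had a negative difference (median -0.99). Orm1 (-1.69 ± 0.15 SE) and Hp (-1.70 ± 0.18), the acute phase proteins orosomucoid and haptoglobin, are stored in specific granules and also made by liver. Haptoglobin signals were 178 to 365 on the skull arrays and 724 to 807 on the limb arrays. Chi3l1 (-1.36 ± 0.13), a chitinase-like protein, had means of 254 in the skull and 640 in the limb. The adhesion molecule Ceacam1 (2 of 3 probe sets) and the stefin Stfa3 (1 of 2 probe sets) were also called. Stefins are cytosolic inhibitors, so the 5 include a gene that does not encode granule content. The skull signal of Stfa3 was at the floor on 3 of 4 arrays, so the size of its difference (-3.71) is not resolved. The subunits of the membrane oxidase were not called, at -0.77 for Cybb and -0.23 for Cyba. For Cybb every skull array was below every limb array (limma, adjusted p = 0.014), whereas Cyba overlapped between the sites (adjusted p = 0.22).

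Of 7 genes of gelatinase granules and secretory vesicles, 3 were lower in the skull, Adam8 (-1.76 ± 0.16, called on 1 of 2 probe sets), the integrin chain Itgam (-1.32) and the heparanase Hpse (-1.16 ± 0.18), while Mmp9 (1.602 ± 0.12) and the arginase Arg1 (1.10) were higher. The median was -0.52. Mmp9, the gelatinase of this granule, is also a major product of osteoclasts, whose list is given below. Of 11 receptor and adhesion genes, 2 were lower, the decoy receptor Il1r2 (-1.81 ± 0.24) and the chemokine receptor Cxcr2 (-1.64 ± 0.40), both carried by mature neutrophils. Il1r2 signals were 29.4 to 71.7 in the skull and 153 to 182 in the limb, and those of Cxcr2 5.84 to 24.01 in the skull and 37.9 to 60.6 in the limb. With replicate number as a block the call of Cxcr2 ended (limma, adjusted p = 0.0845). With 16 added to the signals and no floor, Hpse (-0.94) and Cxcr2 (-0.95) fell short of 2-fold. The receptor of granulocyte colony-stimulating factor, Csf3r (-0.86), the complement receptor C5ar1 (-0.92) and the retention receptor Cxcr4 (-0.68) were not called, although no skull array reached the limb range for any of them.

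Of 11 other genes listed as cytosolic, 5 were lower and none higher (median -0.92). Pglyrp1 (-1.88 ± 0.19), a peptidoglycan recognition protein, had signals of 190 to 409 in the skull and 1002 to 1188 in the limb. Its product is stored in granules, so the 5 include a gene that is not cytosolic. Lta4h (-1.04 ± 0.10), which makes leukotriene B4, and Ncf4 (-1.12 ± 0.12), a cytosolic subunit of the oxidase, were lower as well. Alox5 (-1.77) and Padi4 (-1.83) were also lower, and Padi4 was listed by the study on these samples. Without calvaria 4 the count was 3, since Lta4h (-0.95) and Ncf4 (-0.99) fell short of 2-fold. Lta4h also fell short with the values as deposited (-0.98), after quantile normalization (-0.96) and with array weights (-0.99), where the count was 4.

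Of 10 transcription factors of the granulocyte lineage, 2 were lower in the skull and none higher (median -0.17). Cebpe, which is required for specific granule genes, was lower in the skull (-1.16 ± 0.15, 54.0 to 82.8 in the skull and 124 to 177 in the limb), and the study lists this gene too. Klf5 (-1.23 ± 0.13) was lower on 2 of its 4 probe sets and is also on the study's list. The other 8 were not called. Among them Myb, a factor of early progenitors, had a difference of -0.52 ± 0.08, Cebpa of -0.36 and Gfi1 of -0.05. With 16 added to the signals in place of the floor neither Cebpe (-0.99) nor Klf5 (-0.96) was called.

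In the lists of the azurophil side 2 of 13 genes were lower and none higher. Alpha-defensins are antimicrobial peptides, several of which are stored in azurophil granules. Of 5 measured (median -0.55), Defa7 alone was called (-1.40 ± 0.23), with 65.0 to 138 in the skull and 161 to 242 in the limb. The 3 bright defensins differed by -0.45 (Defa5), -0.56 (Np4) and -0.55 (RatNP-3b) with no overlap between the sites and adjusted p of 0.022, 0.0076 and 0.014 (limma), below 2-fold as for S100a8 and S100a9. The dim Defa24 differed by 0.01. Defensin genes are near copies of each other, so their probe sets may share signal. Of 8 other genes listed as azurophil or lysosomal, 1 was lower and none higher (median 0.35). The lower one was Serpinb1a (-1.15 ± 0.10, both probe sets called), an inhibitor that protects the cell from its own granule proteases. Its signal was 812 to 1084 in the skull and 1908 to 2413 in the limb. This inhibitor is cytosolic and not content of the granule, and the other 7 genes of the list were not called. The proteoglycan Srgn, which holds proteases in granules, differed by -0.49 and was not called. For Srgn every skull array was below every limb array (limma, adjusted p = 0.020). Lyz2 (-0.08), Cd63 (0.52), Gusb (0.79), Ctsc (0.49), Gaa (0.45) and Ctsd (0.26), whose products lysosomes of other cells hold as well, were not called. Of these, Gusb, Ctsc, Cd63 and Gaa had every skull array above every limb array, with adjusted p of 0.00059, 0.0016, 0.0057 and 0.023 (limma), and the difference of each was below 2-fold.

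**Figure D2:**
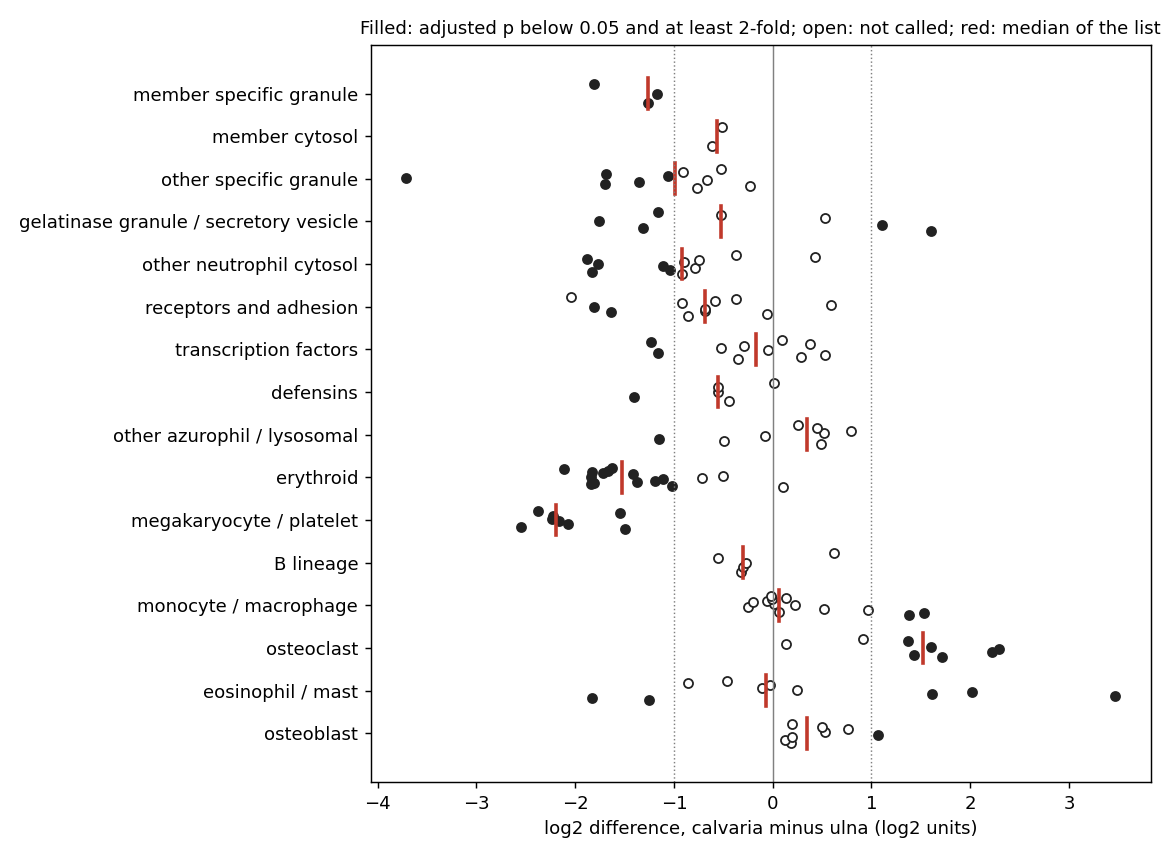
Log2 difference (skull minus limb) of each gene in the member classes and the other lists, 1 point per gene, filled where the gene was called and open where it was not, with the list median in red. The specific granule members and most called genes of the neutrophil lists lie between -1 and -2, the cytosolic members between -1 and 0, and the osteoclast genes are shifted the other way (median 1.52).

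Across the members and the 7 lists, 0 of 9 genes with a mean signal of 2000 or more were called by limma, against 11 of 25 genes between 200 and 2000 and 13 of 32 below 200. The 9 bright genes ranged in log2 difference from -0.92 (the annexin Anxa1) to 0.52 (Cd63). Those 9 include S100a8, S100a9 and the 3 bright defensins. Of the 11 other genes listed as cytosolic, only Anxa1 was this bright. In that list 5 genes were lower in the skull and none higher, with a median of -0.92. Whether brightness or granule class goes with the smaller differences of the cytosolic pair and the defensins was not tested.

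**Figure D3:**
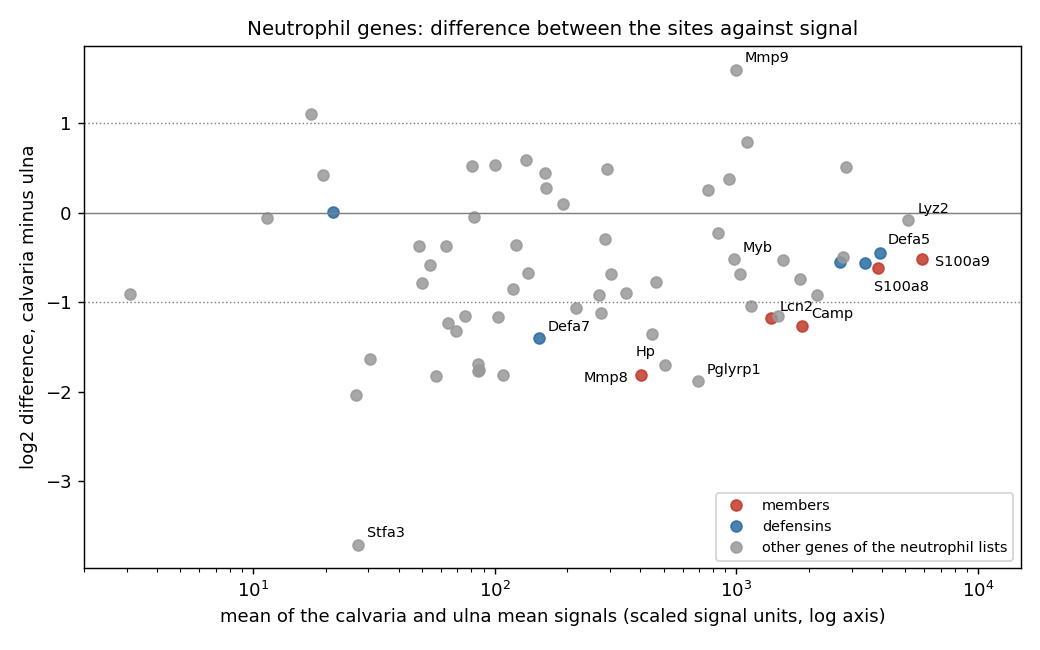
Log2 difference (skull minus limb) against the mean of the skull and limb mean signals (log axis) for the 5 measured members (red), the defensins (blue) and the other genes of the neutrophil lists (grey), with dotted lines at 2-fold. The 9 genes at 2000 signal units or more all lie within 2-fold, whereas Camp, Lcn2, Mmp8 and Defa7 lie beyond it.

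Lists of other cells differed in direction, and those of red cell and platelet precursors were lower in the skull like the specific granule members. Of 16 erythroid genes 13 were lower in the skull and none higher, with the list mean at 8.26 to 8.97 on the log2 scale in the skull and 9.97 to 10.1 in the limb (median difference -1.52). Klf1 (-1.84) and Gata1 (-1.81), transcription factors of red cell precursors, had the smallest adjusted p. All 8 megakaryocyte and platelet genes were lower (median -2.20, list mean up to 7.57 in the skull and at least 9.43 in the limb), among them the platelet chemokine Ppbp (-2.55). None of 5 B lineage genes was called (median -0.30). Of 13 monocyte and macrophage genes none was lower and 2 were higher, Cd68 (1.38) and Csf1r (1.53) (median 0.07, list mean 7.74 to 8.06 in the skull and 7.55 to 7.75 in the limb). Eosinophils and mast cells carry granules of their own. Of 10 such genes 2 were lower, the eosinophil granule genes Epx (-1.82) and Prg2 (-1.26), and 3 were higher, among them the mast cell protease Cpa3 (2.02). Of 8 osteoclast genes 6 were higher, Mmp9, Acp5 (1.72) and Ctsk (1.43) among them, and none lower (list mean 8.68 to 9.16 in the skull and 7.13 to 7.61 in the limb). Of 8 osteoblast genes 1 was higher, Ibsp (1.06), and none lower. Klf1, Gata1, Csf1r, Mmp9, Acp5, Ctsk and Ibsp were listed by the study on these samples. Skeletal muscle genes were lower in the skull in 12 of 13 cases, with a list mean of 3.04 to 3.64 in the skull and 8.89 to 10.3 in the limb. The part of these cells in the member differences was not tested.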

How the data were processed

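Whole bone RNA of the skull (calvaria, 4 samples) and the limb (ulna, 5 samples) was hybridised to Affymetrix Rat Genome GeneChips after one-cycle labelling. What the authors deposited are linear intensities from MAS5, with a single signal for every probe set and the same trimmed mean on every array. The software version is not given in the sources used here. Samples were grouped by title. The samples are pools of rats, so p-values measure the spread between these samples, and their number limits the precision.

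Of 31099 probe sets, 57 were controls and 31042 were tested. The annotation gave 1 symbol to 20826 of them, several to 436 and none to 9780, and 20758 were matched by identifier to the RefSeq table of GRCr8. Each array was divided by its median and multiplied by the mean of the medians, raised to a floor of 2.51 (their 10th percentile) where lower, and taken to log2. Folds of genes near the floor are therefore understated. Signals of different probe sets are not comparable as transcript levels. Sites were compared by limma (3.58.1, R 4.3.3; lmFit and eBayes with an intensity trend), skull minus limb, two-sided, with Benjamini-Hochberg adjustment over all 31042. The fit was tested on simulated data. A gene with several probe sets was represented by that of the highest mean log2 signal.

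Members and lists were chosen with earlier results of these data known. All measured members and Hoxa9 were named, and of the lists genes were named by the 3 smallest adjusted p among those called, or the 2 brightest where none was. Every other list gene named was chosen after its values were seen. Alternatives were other scalings, floors and filters, limma without a trend or with array weights, the methods' t-test, a replicate block and leaving out each array.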

Additional observations from a re-analysis of the deposited data

Results flagged for a closer look

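For each gene named by rule the samples of both sites were screened for a single array far from the rest of its group, by Dixon's ratio at the 95% level. Chance flags about 1 in 20 groups, and 5 of the 84 groups were flagged. Among the members this held for Lcn2, with a signal of 2214 on ulna 1 against 1806 to 1863 on the other limb arrays. Serpinb1a was 2413 on ulna 3 against 1908 to 2011 on the other limb arrays. Defa7 was 138 on calvaria 1 against 65.0 to 71.0 on the other skull arrays. Chi3l1 was 549.8 on ulna 5 against 646 to 682 on the other limb arrays. Hpse was 56.5 on calvaria 2 against 41.9 to 43.5 on the other skull arrays. None of these arrays crossed into the range of the other site.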

How the results depend on the processing

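Under all 19 alternatives Camp, Lcn2 and Mmp8 were called lower in the skull and S100a8 and S100a9 were not called. The log2 differences ranged from -1.34 to -1.20 for Camp, -1.26 to -1.09 for Lcn2, -2.02 to -1.68 for Mmp8, -0.67 to -0.54 for S100a8 and -0.61 to -0.46 for S100a9. The number of probe sets called, 1938 (1042 lower in the skull), was 1032 (595 lower) with 16 added to every signal and no floor, and 1251 (663 lower) over the 15521 brighter probe sets alone, where fewer were tested. For the named genes of the other neutrophil lists, taken gene by gene under each alternative, 274 differences kept their call and direction and 10 lost the call. The 10 came from Lta4h (4 alternatives), Cxcr2 (2) and Ncf4, Hpse, Cebpe and Klf5 (1 each). Of the list counts, 128 stayed within 1.5 times and 5 did not. The receptor count was 1 in place of 2 with the added 16, with the block and with the brighter probe sets alone. Cxcr2 was not among those brighter probe sets. The transcription factor count was 0 with the added 16, and the cytosolic count was 3 in place of 5 without calvaria 4. Within the 1.5 times, the receptor count was 3 with the floor at the 25th percentile, with array weights and without calvaria 1 or calvaria 4.

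Skull and limb arrays share the numbers 1 to 4. Over all probe sets tested, deviations of same-number arrays were hardly correlated (r = 0.04, -0.01, -0.01 and 0.04). Of 4 skull arrays, 2 correlated best with their own number. Dim probe sets were included and their noise can hide a shared deviation. These values therefore cannot show whether arrays of the same number share a group of rats. With replicate number as a block, which leaves out ulna 5, 1571 probe sets were called, and S100a9 had an adjusted p of 0.073 (limma). Whether signals near the top of the array range compress differences was not tested.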

Other observations

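Of the 19 neutrophil list genes called lower in the skull, 13 had their highest skull signal on calvaria 1 and 14 their lowest on calvaria 4. Of the 16 erythroid genes, called or not, 10 were also highest on calvaria 1, but 14 were lowest on calvaria 3 and 1 on calvaria 4. Over all 1042 probe sets called lower in the skull, 45.6% were highest on calvaria 1, 42.9% were lowest on calvaria 3 and 27.0% on calvaria 4. Over all 31042 probe sets tested, called or not, 23.1% were highest on calvaria 1, 23.9% were lowest on calvaria 3 and 33.1% on calvaria 4. Among the members, S100a8, S100a9 and Lcn2 were lowest on calvaria 4, and Camp and Mmp8 on calvaria 3, where the values of both arrays lay close together. These counts were looked for after the values were seen and carry no test.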
